A study of Mus musculus with 12 samples.

Results

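The genes described here encode the proteins of the cytosolic ribosome. They were chosen by symbol, as Rpsa, Rplp0, Rplp1, Rplp2 and the Rpl and Rps genes with a number and at most a short paralog ending, without the Rps6k kinases and the pseudogene symbols. This gave 84 of the 23366 gene symbols in the count table, 32 of the small subunit and 52 of the large subunit. The RNA came from fibroblasts of mouse embryos, connective tissue cells kept in culture for a few passages, in 4 groups of 2 sequenced libraries. The groups were Carm1 knockout cells after 18 h of glucose starvation, Carm1 knockout cells in rich medium, wild-type cells after the same starvation, and wild-type cells in rich medium. All were C57BL/6 cells at passages 3 to 5. Rich medium was DMEM with 10% fetal bovine serum. Starved cells were kept in DMEM without glucose with 10% dialyzed serum, so the media differed in serum dialysis as well as in glucose. Sample titles place the rich libraries at the start of the time course and the starved ones at 18 h. No rich library at 18 h was sequenced, so the starvation comparisons also differ in time. Carm1 encodes an arginine methyltransferase that acts on histone H3 and other proteins. The sources used here do not say how the knockout was made or whether replicates came from separate embryos or cultures, so p-values measure the spread between these libraries only.

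A ribosome joins a small subunit, which holds the mRNA and reads its codons, to a large subunit, which forms the peptide bonds. Apart from the stalk proteins, most are present in a single copy per subunit, and their genes are usually expressed together. The mRNAs of mammalian ribosomal proteins and of many translation factors begin with a terminal oligopyrimidine (TOP) tract, an unbroken run of C and T at the very start of the message, through which the kinase mTOR and the RNA-binding protein LARP1 set how much each is translated and how long it is kept. Ribosome production takes much of a growing cell's energy, and starved cells are known to limit it.

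The start regions of a few members are shown, because the pyrimidine tract lies there and because these members carry the differences described further on. Each is 70 bases before and 30 bases from the annotated start, from RefSeq on GRCm38.p6, 5′ to 3′ on the gene's own strand, with unbroken runs of at least 8 C or T in capitals. The counts themselves were made on mm9, so the windows were matched by symbol and not by position.
Rps12 (chr10:23787180-23787279, minus strand): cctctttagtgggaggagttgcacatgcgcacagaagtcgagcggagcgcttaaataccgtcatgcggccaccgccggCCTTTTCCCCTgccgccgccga
Rpl22l1 (chr3:28805438-28805537, plus strand): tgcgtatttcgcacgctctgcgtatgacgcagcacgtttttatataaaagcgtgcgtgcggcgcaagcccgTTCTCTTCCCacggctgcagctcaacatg
Rpl27a (chr7:109519125-109519224, plus strand): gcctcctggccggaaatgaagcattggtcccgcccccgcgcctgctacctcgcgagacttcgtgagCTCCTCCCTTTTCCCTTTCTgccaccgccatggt
Rps6 (chr4:86857338-86857437, minus strand): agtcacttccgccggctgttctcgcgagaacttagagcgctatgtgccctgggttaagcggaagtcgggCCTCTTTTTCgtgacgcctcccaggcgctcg
Rps4x (chrX:102189362-102189461, minus strand): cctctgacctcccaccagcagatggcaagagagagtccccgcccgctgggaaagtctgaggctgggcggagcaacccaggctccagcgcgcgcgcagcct
Rpl7l1 (chr17:46782627-46782726, minus strand): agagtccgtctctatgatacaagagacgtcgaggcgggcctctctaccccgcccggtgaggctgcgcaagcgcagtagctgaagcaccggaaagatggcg
Rps12, Rpl22l1, Rpl27a and Rps6 hold such runs, of 11, 10, 20 and 10 bases, and Rps4x and Rpl7l1 hold none in this window. Of the 84 symbols 64 had at least 1 window, with 76 windows in all. A run of at least 8 C or T on the sense strand within 30 bases of the start was found in 48.7% of the members' windows and in 22.9% of the 32851 windows of all genes. On either strand of the 300-base windows, CCGGAAG, the core bound by ETS factors, was found in 35.5% of the members' windows and in 8.86% of all windows. AAGATGGC, a core of YY1, was found in 10.5% of the members' windows and in 2.749% of all windows, and TATAAA in 9.21% of the members' windows and in 13.6% of all windows. These are matches of letters in the annotated windows, not sites shown to be bound or used.

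Across libraries the gene counts summed to between 8447014 in knockout rich replicate 1 and 28155431 in wild-type starved replicate 2. Carm1 had 1344, 1363, 391 and 1526 counts in the starved and rich knockout libraries, against 4405 to 5728 counts in the wild-type libraries, so a part of its reads remained in cells labelled knockout. The knockout and wild-type cultures also differed in markers of cell type and in Xist. Thy1 had 1096 to 4498 counts in the knockout libraries and 1 to 6 in the wild-type libraries, and Cdh5, an endothelial cadherin, had 1026 to 5915 counts in the knockout libraries and 0 to 2 in the wild-type libraries. The 12 fibroblast markers summed to 16542.9 to 19808.6 CPM (counts scaled to library size) in the knockout libraries and 7921.4 to 11389.7 CPM in the wild-type libraries, with 1 or 2 of them at 0 in every library, while the defining collagen gene Col1a1 had 6533 to 26017 counts in the knockout libraries and 35133 to 78739 in the wild-type libraries. The 5 endothelial markers summed to 131.8 to 245.4 CPM in the knockout libraries and 2.09 to 5.02 CPM in the wild-type libraries. Other markers went the other way, with 0 to 2 counts of Kdr, an endothelial receptor, in the knockout libraries and 39 to 130 in the wild-type libraries, and 0 counts of Fap, a fibroblast marker, in the knockout libraries and 0 to 24 in the wild-type libraries. The 6 leukocyte markers summed to 15.0 to 33.6 CPM in the knockout libraries and 5.58 to 7.89 CPM in the wild-type libraries, and the 4 neural markers to 238.2 to 374.1 CPM in the knockout libraries and 101.3 to 116.6 CPM in the wild-type libraries. Xist, the RNA of the inactive X chromosome, had 0 to 6 counts in the knockout libraries and 18657 to 23751 in the wild-type libraries. These differences run along the genotype in both media, and their part in the results on genotype was not tested. In bulk RNA, fewer cells of a type and less RNA per cell cannot be told apart.

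Knockout rich replicate 1 stood apart from its replicate in these genes. The log2 ratio of replicate 1 to replicate 2 over the 81 members tested had a median of -0.57 and a standard deviation (SD) of 0.734 in the knockout rich pair, and 26 members were more than 2-fold lower in replicate 1. It ran from -2.88 for Rps14, with 40.0 CPM in replicate 1 and 297.0 CPM in replicate 2, to 0.66 for Rpl23, with 1072.1 and 680.4 CPM. The next lowest ratios were -2.11 for Rplp1, -2.09 for Rplp2, -2.04 for Rpl13 and -1.92 for Rps15, and the next highest 0.58 for Rps26. In the other 3 groups the SD of this ratio was 0.071 to 0.096 and 0 members differed more than 2-fold. The spread was as wide over all 13882 genes tested, with an SD of 0.741 in the knockout rich pair and of 0.209 to 0.213 in the others. Replicate 1 is also the shallowest library. Because the fit pools the spread over groups, every comparison had fewer calls with both libraries of this pair than without replicate 1 or without replicate 2. The higher number of calls is therefore not particular to leaving out replicate 1. Results are given with and without replicate 1. When 1 library of the pair is left out, the remaining knockout rich library is assumed to vary like the other groups.

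**Figure D1:**
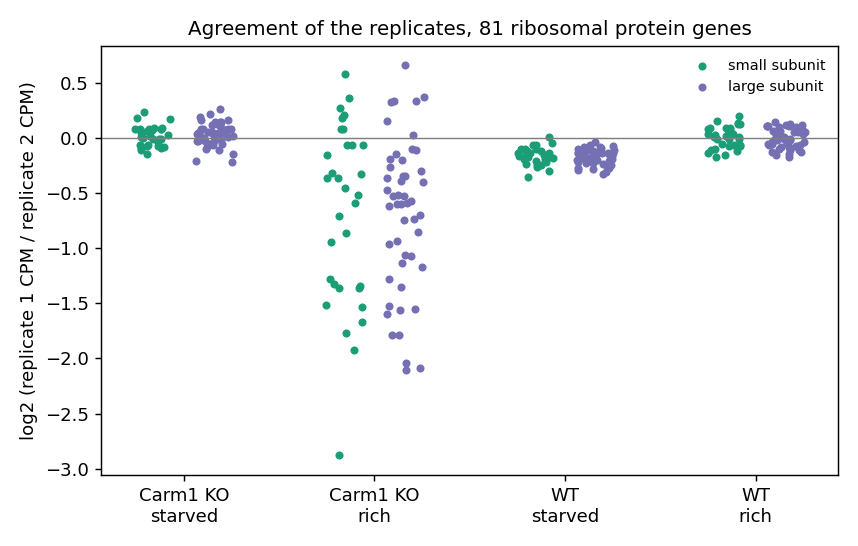
Log2 ratio of replicate 1 to replicate 2 (CPM plus 0.5) for the 81 tested ribosomal protein genes, 1 point a gene, by group and subunit. The points of 3 groups lie close to 0, while those of the knockout rich pair run from -2.88 to 0.66.

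In total the members took 4.49% and 4.37% of gene counts in the starved knockout libraries, 2.97% and 4.27% in the rich knockout libraries, 6.53% and 7.18% in the starved wild-type libraries and 4.32% and 4.29% in the rich wild-type libraries. Both starved wild-type libraries were above all others, and the shares of the starved knockout libraries lay just above those of the rich wild-type libraries. The group means were 4.43% ± 0.0816, 3.62% ± 0.918, 6.85% ± 0.456 and 4.31% ± 0.0184 in the same order (SD, n = 2 each). The part of the small subunit varied less: small subunit genes gave 39.2% and 39.2% of the members' counts in the starved knockout libraries, 41.0% and 39.7% in the rich knockout libraries, 38.6% and 38.7% in the starved wild-type libraries, and 39.6% and 39.1% in the rich wild-type libraries. Knockout rich replicate 1 was thus the highest in the small subunit's part as well as the lowest in the total.

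**Figure D2:**
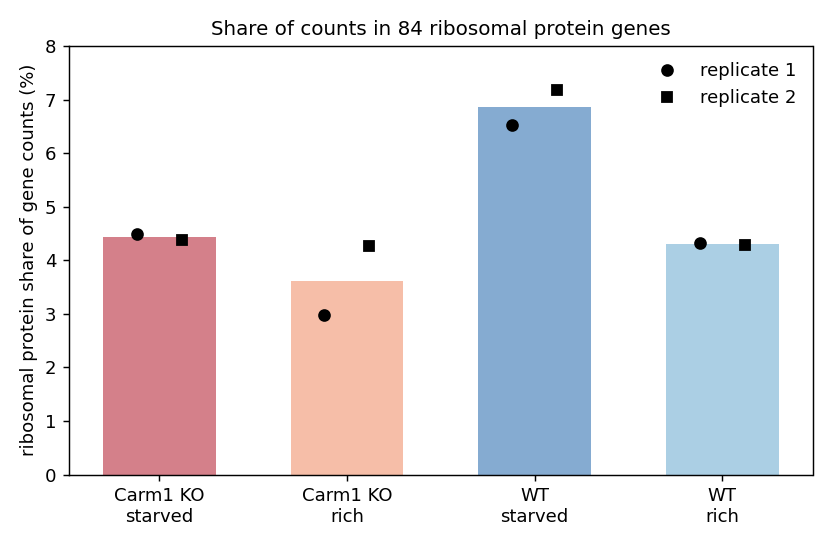
Share of each library's gene counts that fell in the 84 ribosomal protein genes (percent); bars are group means and symbols the 2 replicates. The starved wild-type libraries reach 6.53% and 7.18%, the other libraries 2.97% to 4.49%.

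In wild-type cells many ribosomal protein mRNAs rose under glucose starvation, in both subunits. Of the 81 members tested, 39 rose and 0 fell at an adjusted p under 0.05 (edgeR quasi-likelihood test, Benjamini-Hochberg over the 13882 genes tested), while 14.8% of all genes tested rose and 18% fell. Without knockout rich replicate 1, 79 members rose and 1 fell, with 32.5% and 34.3% of all genes. The 4 wild-type libraries fitted alone also gave 79 higher and 1 lower, with 36.4% and 35.6% of all genes. Leaving out knockout rich replicate 2 in place of replicate 1 raised the number of calls as well. Leaving out a library of another group lowered the count instead, to 14 and 6 members higher without starved wild-type replicate 1 and 2, 7 and 3 without rich wild-type replicate 1 and 2, and 23 without either starved knockout library, while 3.95% to 9.81% of all genes rose in these 6 fits. The median log2 fold change was 0.65 over the members and 0 over all genes tested. In 79 of the 81 members both starved wild-type libraries lay above both rich ones, and in 1 both lay below; over all genes tested the shares were 41% and 40.8%. The calls held 17 of 32 small subunit genes, with a median log2 fold change of 0.67 over the subunit, and 22 of 49 tested large subunit genes, with a median of 0.64.

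The rise was largest in 4 genes of the large subunit. Rpl3, whose product reaches towards the peptidyl transferase centre, had 2406.9 and 2572.2 CPM in the starved wild-type libraries, against 881.2 and 847.6 CPM in the rich ones. It rose by 1.53 ± 0.28 on the log2 scale (± SE, adjusted p = 0.00676). Rpl10a had 1191.9 and 1261.6 CPM in the starved wild-type libraries and 464.4 and 455.7 CPM in the rich ones, a log2 fold change of 1.41 ± 0.23 (adjusted p = 0.00437). For both genes the starved and rich libraries were far apart, with little spread within a pair. Rpl22l1, the paralog of the RNA-binding protein gene Rpl22, had 26.2 and 31.7 CPM in the starved wild-type libraries against 10.9 and 11.3 CPM in the rich ones, a log2 fold change of 1.38 ± 0.17 (adjusted p = 0.0016). Rpl12, of the base of the ribosomal stalk, rose by 1.02 ± 0.22 (adjusted p = 0.013). Among small subunit genes Rps20 rose by 0.95 ± 0.14 (adjusted p = 0.00332) and Rps12 by 0.90 ± 0.13 (adjusted p = 0.00254). Rps12 had 1602.2 and 1723.2 CPM in the starved wild-type libraries and 901.9 and 883.0 CPM in the rich ones, without overlap.

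Other members with well-known roles had values near the median of the members. Rps6, the substrate of the S6 kinases and a common readout of mTOR activity, had 1370.4 and 1564.6 CPM in the starved wild-type libraries and 914.3 and 920.6 CPM in the rich ones, and rose by 0.68 ± 0.14 (adjusted p = 0.00962). Rps27a, which is made as a fusion with ubiquitin, rose by 0.70 ± 0.13 (adjusted p = 0.00671), and Rps3, at the mRNA entry channel, by 0.68 ± 0.18 (adjusted p = 0.0288). Rpl5 and Rpl11 join the 5S rRNA in a particle that binds and inhibits MDM2 when ribosome assembly is disturbed. Both rose, by 0.64 ± 0.12 (adjusted p = 0.0066) and by 0.50 ± 0.15 (adjusted p = 0.0386). The 3 genes of the acidic stalk, which recruits elongation factors, had log2 fold changes of the same size without a call: 0.87 ± 0.31 for Rplp0, 0.74 ± 0.55 for Rplp1 and 0.59 ± 0.55 for Rplp2, with adjusted p = 0.0685, 0.345 and 0.446 by edgeR. Rpsa, which also occurs as the laminin receptor, and Rps19, a gene mutated in human Diamond-Blackfan anemia, were in the same position at 0.69 ± 0.36 (adjusted p = 0.183) and 0.73 ± 0.37 (adjusted p = 0.18). All 5 were far lower in knockout rich replicate 1 than in replicate 2, and this gap enters the pooled spread of the fit. Leaving out either of these libraries removes the gap from the spread. Without replicate 1 the wild-type log2 fold changes hardly moved, at 0.84, 0.72, 0.57, 0.67 and 0.71 in the order named.

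Further small subunit genes called higher included Rps2, Rps3a1, Rps4x, Rps7, Rps10, Rps23, Rps24, Rps26 and Rps28, with log2 fold changes of 0.53 (Rps3a1) to 0.77 (Rps7). Further large subunit genes called higher included Rpl4, Rpl6, Rpl7, Rpl10, Rpl14, Rpl17, Rpl19, Rpl22, Rpl23a, Rpl24, Rpl26, Rpl27a, Rpl28, Rpl30 and Rpl31, from 0.51 (Rpl24) to 0.89 (Rpl10). The 42 members tested and not called ran from -0.33 (Rpl7l1) to 0.87 (Rplp0), and 28 of them lay within the range of the called members.

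A few members had values near or below 0. Rpl7l1, a paralog of Rpl7, had 154.8 and 162.3 CPM in the starved wild-type libraries and 193.0 and 205.1 CPM in the rich ones, a log2 fold change of -0.33 ± 0.18 (adjusted p = 0.201) that was called lower, at -0.35, once knockout rich replicate 1 was left out (adjusted p = 1.18e-06). It was the 1 member whose starved wild-type libraries both lay below the rich ones. Rps27l, the paralog of Rps27 that p53 is known to induce, had 73.8 and 77.2 CPM in the starved wild-type libraries and 76.5 and 69.7 CPM in the rich ones, which overlap; its log2 fold change was 0.05 ± 0.14 (adjusted p = 0.842). Rps29 and Rpl27 followed at 0.21 ± 0.45 (adjusted p = 0.765) and 0.30 ± 0.20 (adjusted p = 0.301).

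**Figure D3:**
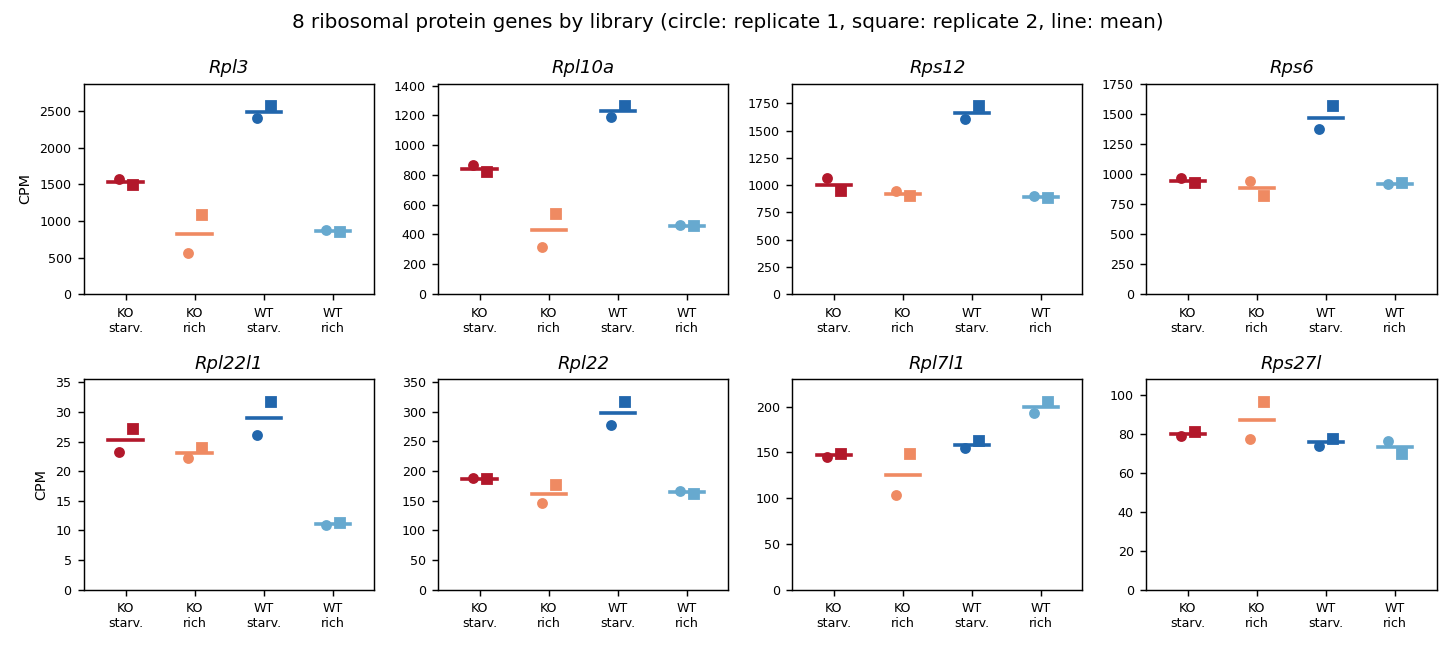
Level of 8 ribosomal protein genes in every library (CPM on TMM-scaled library sizes, linear axis from 0); circles are replicate 1, squares replicate 2 and lines group means. Rpl3, Rpl10a, Rps12, Rps6 and Rpl22 peak in the starved wild-type libraries, Rpl22l1 is lowest in the rich wild-type libraries and Rpl7l1 highest there.

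In knockout cells the size of the starvation response rests on which rich replicate is used. With all 8 libraries 1 of 81 members rose and 0 fell, while 8.44% of all genes tested rose and 9.77% fell. The median log2 fold change of the members was 0.37 with all libraries, 0.13 without knockout rich replicate 1, and 0.73 without knockout rich replicate 2. Without replicate 1, 28 members rose and 3 fell, with 25.4% and 24.4% of all genes, so the share of members called higher was then only a little above the background. The fit without replicate 2 called 60 members higher and 5 lower, with 32.9% and 26.2% of all genes. Both starved knockout libraries lay above both rich ones in 46 of 81 members and below both in 2, against 28.7% and 26.6% of all genes. Whichever rich replicate was left out, 20 members were called higher and 0 were called lower in both fits, against 15.7% and 13.1% of all genes called higher and lower in both. The call made with all libraries was lost when any 1 of the other 6 libraries was left out. Fewer of all genes were then called higher too. Over all fits that left out 1 library, the median of the members ranged from 0.13 without knockout rich replicate 1 to 0.73 without knockout rich replicate 2.

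The member called higher with all libraries was Rpl10a. It had 863.7 and 817.1 CPM in the starved knockout libraries against 319.1 and 535.4 CPM in the rich ones, a log2 fold change of 0.97 ± 0.23 (adjusted p = 0.0282). Rpl3 had 1569.8 and 1491.3 CPM in the starved knockout libraries and 562.0 and 1077.0 CPM in the rich ones, a log2 fold change of 0.90 ± 0.28 (adjusted p = 0.0636). These are also the 2 members with the largest rise in wild-type cells, and without knockout rich replicate 1 their log2 fold changes in knockout cells were 0.67 and 0.53, the highest of the members. Rpl5 had 0.23 ± 0.12 (adjusted p = 0.213) and Rps6 0.10 ± 0.14 (adjusted p = 0.645), with 969.8 and 921.3 CPM in the starved knockout libraries and 945.2 and 817.9 CPM in the rich ones. The stalk genes had log2 fold changes of 0.52 for Rplp0, 0.86 for Rplp1 and 0.79 for Rplp2 with all libraries, and of 0.11, 0.18 and 0.12 without replicate 1, with no call either way. The lowest values belonged to Rpl23, at -0.32 ± 0.21 (adjusted p = 0.319) and at 0.06 without replicate 1, and, without replicate 1, to Rpl39, which was then called lower at -0.38 (adjusted p = 0.000131), while without replicate 2 it was at 0.20 (adjusted p = 0.0805).

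After starvation, the members called were lower in knockout than in wild-type cells, relative to all gene counts. Of 81 members tested, 24 were lower and 0 higher in starved knockout cells, while 26.8% of all genes tested were lower and 27.8% higher, so that the count of lower members was close to the background and all were in one direction. Without knockout rich replicate 1, 69 members were lower and 2 higher, with 40.6% and 39.6% of all genes. The 4 starved libraries alone also gave 69 lower and 2 higher, with 41.8% and 40.6% of all genes. Leaving out knockout rich replicate 2 in place of replicate 1 raised the number of lower members as well. With a starved library left out the count fell to 10 and 7 lower without starved knockout replicate 1 and 2, and to 14 and 8 without starved wild-type replicate 1 and 2, while 16.3% to 18% of all genes were lower in these 4 fits. The median log2 fold change was -0.47 over the members and -0.02 over all genes tested. The median of the members was also -0.47 with knockout rich replicate 1 or replicate 2 left out. Both starved knockout libraries lay below both starved wild-type ones in 70 of 81 members and above them in 3, against 45.5% and 44.1% of all genes. In the small subunit 10 of 32 genes were called lower, at a median of -0.44, and in the large subunit 14 of 49, at a median of -0.51.

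Rpl9 differed most in this comparison. It had 232.0 and 268.1 CPM in the starved knockout libraries against 492.5 and 568.5 CPM in the starved wild-type ones, a log2 fold change of -1.09 ± 0.34 (adjusted p = 0.0288). Rpl6 had 873.1 and 830.5 CPM in the starved knockout libraries and 1540.8 and 1724.2 CPM in the starved wild-type ones, a log2 fold change of -0.94 ± 0.15 (adjusted p = 0.00159). Rps24, another Diamond-Blackfan anemia gene in human, was at -0.77 ± 0.12 (adjusted p = 0.00157), Rps27a at -0.78 ± 0.13 (adjusted p = 0.00196) and Rps12 at -0.73 ± 0.13 (adjusted p = 0.00247). For each of these genes the 2 starved knockout libraries were both below the 2 starved wild-type ones. Rps6 was lower by 0.63 ± 0.14 log2 units in starved knockout cells, a log2 fold change of -0.63 (adjusted p = 0.00649). Both 5S particle genes were lower as well, Rpl5 at -0.60 ± 0.12 (adjusted p = 0.00408) and Rpl11 at -0.77 ± 0.15 (adjusted p = 0.00403). Rps15, of the decoding region of the small subunit, had 498.6 and 531.5 CPM in the starved knockout libraries and 979.9 and 1136.5 CPM in the starved wild-type ones; its -1.04 ± 0.51 was not called with all libraries (adjusted p = 0.125). Rplp0, Rplp1, Rplp2 and Rpsa, at -0.67, -0.57, -0.18 and -0.75, were not called either.

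Further members called lower included Rps4x, Rps10, Rps23, Rps25, Rps26 and Rps28 of the small subunit, from -0.79 (Rps23) to -0.41 (Rps10), and Rpl4, Rpl14, Rpl21, Rpl22, Rpl23a, Rpl24, Rpl26, Rpl27a and Rpl41 of the large subunit, from -0.78 (Rpl26) to -0.47 (Rpl24).

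The highest values in this comparison belonged to Rps20 and Rps29. Rps20 had 597.6 and 603.4 CPM in the starved knockout libraries against 482.5 and 529.7 CPM in the starved wild-type ones, with a log2 fold change of 0.25 ± 0.14 (adjusted p = 0.181). Rps29 had 108.9 and 117.3 CPM in the starved knockout libraries and 87.5 and 103.9 CPM in the starved wild-type ones, at 0.24 ± 0.45 (adjusted p = 0.672). These 2 genes did not overlap between the genotypes, and they are the 2 members called higher without knockout rich replicate 1.

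In rich medium the members called between the genotypes went both ways. With all libraries 3 members were higher and 3 lower in knockout cells, while 23.4% of all genes tested were higher and 20.7% lower. Without knockout rich replicate 1 the counts were 33 and 20, with 32.3% and 33.6% of all genes. Leaving out replicate 2 instead gave 11 higher and 49 lower, with 34.3% and 38.4% of all genes. The median log2 fold change was -0.11 with all libraries, 0.07 without replicate 1 and -0.50 without replicate 2, so that its sign rests on the choice of library. The 3 higher members were Rpl22l1, Rps20 and Rpl7. Rpl22l1 had 22.3 and 23.9 CPM in the rich knockout libraries against 10.9 and 11.3 CPM in the rich wild-type ones, a log2 fold change of 1.05 ± 0.17 (adjusted p = 0.00271). Rps20 had 408.5 and 511.6 CPM in the rich knockout libraries against 264.0 and 261.2 CPM in the rich wild-type ones, at 0.81 ± 0.14 (adjusted p = 0.00381). Both were as large without replicate 1, at 1.06 and 0.92. Rpl7 was at 0.37 ± 0.13 (adjusted p = 0.0482). The 3 lower members were Rpl7l1 at -0.66 ± 0.18 (adjusted p = 0.0218), Rpl6 at -0.56 ± 0.15 (adjusted p = 0.0196) and Rps24 at -0.37 ± 0.12 (adjusted p = 0.0436).

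**Figure D4:**
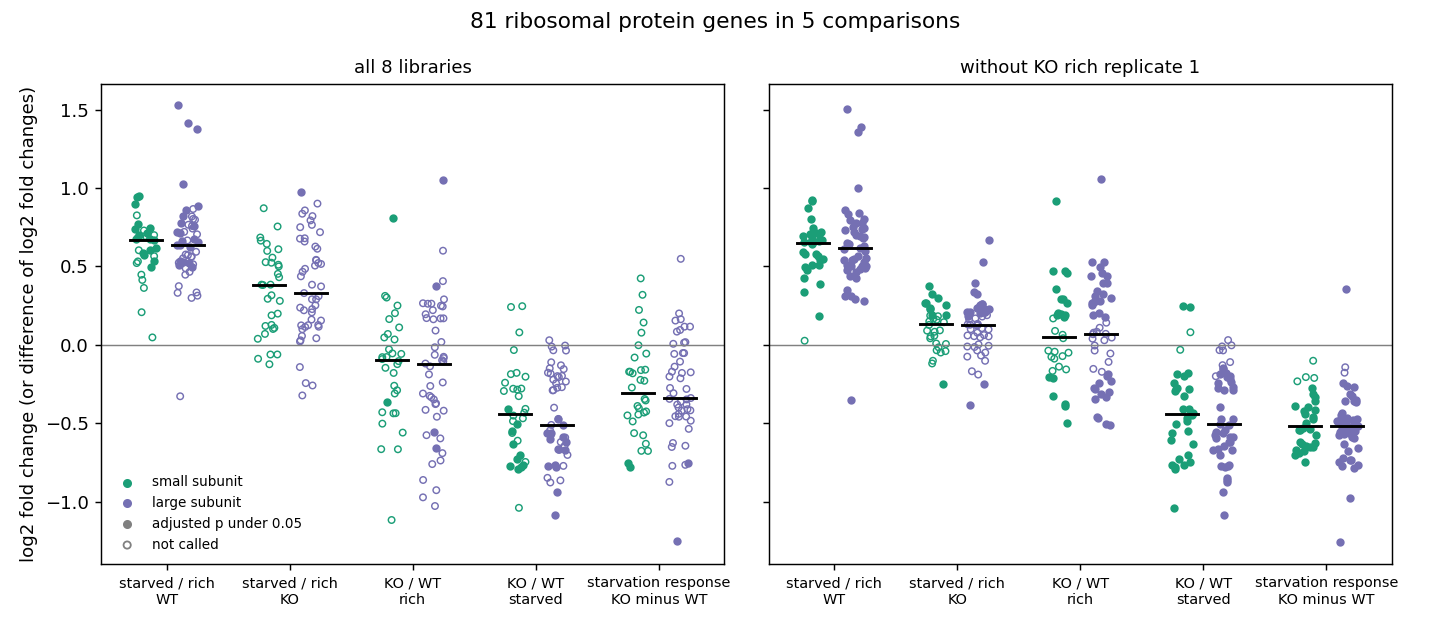
Log2 fold change of the 81 tested ribosomal protein genes in 5 comparisons, 1 point a gene, filled where the edgeR adjusted p is under 0.05; bars are medians by subunit. Starvation of wild-type cells and knockout against wild type after starvation keep their place without knockout rich replicate 1, with medians over both subunits of 0.65 and -0.47 in all libraries, while the other 3 comparisons narrow or shift.

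The test of the difference between the starvation responses of knockout and wild-type cells called 4 members, all with a smaller response in knockout cells: Rpl22l1, Rps4x, Rps12 and Rpl27a. That is 4 of 81 lower and 0 higher, while 5.91% of all genes tested were lower and 7.43% higher. Without knockout rich replicate 1, 74 were lower and 1 higher, with 23.1% and 26.2% of all genes, and the median difference was -0.51 against -0.34 with all libraries. With knockout rich replicate 2 left out it was 0.01, with 34 members higher and 26 lower, while 32.2% of all genes were higher and 24.2% lower and their median was 0.18. Leaving out any 1 of the other 6 libraries left 0 members called, with 0.869% to 1.06% of all genes lower, and the replicate block left 1, Rpl22l1. The median difference over the members therefore rests on which of the 2 rich knockout libraries is used. The fits without either rich knockout library both called 23 members lower and 1 higher, the 4 above among the lower ones, against 12.6% and 18.7% of all genes. The 23 also include Rps6, Rps20, Rpl5, Rpl11 and Rpl22.

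These 4 members have in common that the 2 rich knockout libraries were close to each other. Rps12 had 1060.0 and 944.6 CPM in the starved knockout libraries and 948.3 and 895.9 CPM in the rich ones, with a log2 fold change of 0.12 ± 0.13 in knockout cells (adjusted p = 0.543) beside 0.90 in wild-type cells; the difference was -0.78 ± 0.18 (adjusted p = 0.0322). Rps4x had 763.9 and 752.3 CPM in the starved knockout libraries and 787.4 and 824.9 CPM in the rich ones, against 1063.9 and 1159.3 CPM in the starved wild-type libraries and 723.0 and 678.7 CPM in the rich ones. Its difference was -0.75 ± 0.17 (adjusted p = 0.0298). In both genes the starved wild-type pair stood above the 3 other groups, which lay near each other. Rpl27a had 546.7 and 528.4 CPM in the starved knockout libraries and 509.8 and 549.2 CPM in the rich ones, against 754.7 and 830.4 CPM in the starved wild-type libraries and 480.3 and 444.9 CPM in the rich ones, with a difference of -0.76 ± 0.17 (adjusted p = 0.0323). Rpl22l1 differed most, at -1.25 ± 0.24 (adjusted p = 0.0177). Its level was already high in rich knockout cells, so that rich wild-type cells are the group that stands apart. Of the start regions shown, that of Rps4x holds no pyrimidine run and those of the other 3 hold one. Over the 61 tested members with a window the median log2 fold change under wild-type starvation was 0.64 in the 34 with a run, 17 of them called, and 0.67 in the 27 without, 11 of them called.

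The paralogs were set against their main genes within each library. Counts of Rpl22l1 per 100 counts of Rpl22 were 12.4 and 14.6 in the starved knockout libraries, 15.2 and 13.5 in the rich knockout libraries, 9.42 and 10.0 in the starved wild-type libraries and 6.59 and 6.997 in the rich wild-type libraries. The groups of knockout libraries were above both wild-type groups without overlap. Rpl22 itself rose under wild-type starvation by 0.86 ± 0.14 (adjusted p = 0.00424) and was lower in starved knockout than in starved wild-type cells, at -0.67 ± 0.14 (adjusted p = 0.0056). Counts of Rpl7l1 per 100 of Rpl7 were 14.3 and 15.1 in the starved knockout libraries, 10.6 and 17.01 in the rich knockout libraries, 13.4 and 12.97 in the starved wild-type libraries and 26.1 and 30.01 in the rich wild-type libraries, so that rich wild-type cells were highest. Counts of Rps27l per 100 of Rps27 were 76.9 and 74.9 in the starved knockout libraries, 207.3 and 89.3 in the rich knockout libraries, 54.97 and 49.3 in the starved wild-type libraries and 86.3 and 75.2 in the rich wild-type libraries. The value of 207.3 is knockout rich replicate 1, where Rps27 was low. Rpl36al per 100 of Rpl36a stayed between 45.4 and 56.2 in all 8 libraries. Genes differ in length, so these ratios compare libraries and not the amounts of the 2 proteins. Rpl10l and Rpl39l, paralogs known from the testis, had 0 counts in every library and Rpl3l, a muscle paralog, 0 to 4, and these 3 were not tested.

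Of the members, Rps4x, Rpl10, Rpl36a and Rpl39 lie on the X chromosome, and Xist separated the genotypes. In rich knockout against rich wild-type cells their log2 fold changes were 0.20, -0.24, 0.17 and 0.22, and after starvation -0.55, -0.62, -0.29 and -0.23. Only Rps4x after starvation was called with all libraries (adjusted p = 0.00669). These 4 values lie within the range of the other members in both media.

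Genes that share the TOP tract or a part in making ribosomes were set beside the members. Fau, which encodes a ribosomal protein fused to a ubiquitin-like part, and Gnb2l1, which encodes RACK1, had log2 fold changes of 0.90 ± 0.31 and 0.77 ± 0.30 under wild-type starvation and were not called (adjusted p = 0.061 and 0.0912). Of 21 TOP translation factors 0 were called under starvation in knockout cells, and 8 rose and 0 fell in wild-type cells, with medians of 0.20 and 0.54, against the 8.44% and 14.8% of all genes that rose. In the fit without knockout rich replicate 1 the medians were 0.19 in knockout cells and 0.52 in wild-type cells. With all libraries the difference between the responses was called for 0 of the 21, while 5.91% of all genes were lower and 7.43% higher. The smallest adjusted p of the list by edgeR was 0.0738, for Eef1a1. Eef1a1, the main elongation factor gene, had 9942.2 and 8486.0 CPM in the starved knockout libraries, 8463.3 and 8447.5 CPM in the rich knockout libraries, 15347.3 and 15513.5 CPM in the starved wild-type libraries and 8782.9 and 8889.1 CPM in the rich wild-type libraries. It rose by 0.80 ± 0.15 in wild-type cells (adjusted p = 0.00661), and the starved wild-type pair alone stood apart, as for Rps12. Eef1b2 rose by 0.91 ± 0.15 in wild-type cells (adjusted p = 0.00492). After starvation 9 of the 21 were lower in knockout cells and 2 higher, with a median of -0.38, against 26.8% and 27.8% of all genes. Eef1a1 was at -0.74 ± 0.15 (adjusted p = 0.00435 by edgeR).

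Host genes of small nucleolar RNAs, many of which carry a TOP tract, had larger log2 fold changes than the ribosomal protein genes in wild-type cells at the median. Of 10 tested, 5 rose and 0 fell in knockout cells, at a median of 0.37, and 7 rose and 0 fell in wild-type cells, at a median of 1.34, against the 8.44% and 14.8% of all genes that rose. When knockout rich replicate 1 was left out, the medians were 0.64 in knockout cells and 1.32 in wild-type cells. The median difference between the responses was then -0.55, against -1.09 with all libraries. Snhg12 had 85.6 and 86.9 CPM in the starved knockout libraries, 21.8 and 21.7 CPM in the rich knockout libraries, 159.0 and 167.7 CPM in the starved wild-type libraries and 18.6 and 17.2 CPM in the rich wild-type libraries. Its log2 fold change was 1.99 ± 0.12 in knockout cells (adjusted p = 0.000508) and 3.19 ± 0.13 in wild-type cells (adjusted p = 5.61e-05), and the test of the difference gave -1.20 ± 0.17 (adjusted p = 0.00602). Snhg5 rose by 1.23 ± 0.21 in knockout cells (adjusted p = 0.0102) and by 3.00 ± 0.22 in wild-type cells (adjusted p = 0.000313). The difference was called for 5 of the 10, each with a smaller response in knockout cells, while 5.91% of all genes were lower and 7.43% higher.

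Some factors that assemble ribosomes rose under starvation. Of 65 tested, 20 rose and 1 fell in starved knockout cells at a median of 0.51, and 14 rose and 3 fell in starved wild-type cells at a median of 0.18, against the 8.44% and 14.8% of all genes that rose. Without knockout rich replicate 1 the medians were 0.66 in knockout cells and 0.15 in wild-type cells. The difference was called for 7, all with the larger response in knockout cells, while 7.43% of all genes were higher and 5.91% lower. After starvation 27 were higher and 4 lower in knockout than in wild-type cells, against 27.8% and 26.8% of all genes. Rrp12, of small subunit export, had 177.0 and 173.4 CPM in the starved knockout libraries, 55.4 and 82.5 CPM in the rich knockout libraries, 103.2 and 100.1 CPM in the starved wild-type libraries and 105.8 and 107.1 CPM in the rich wild-type libraries. It rose by 1.34 ± 0.19 in knockout cells (adjusted p = 0.00517), and the difference was 1.41 ± 0.26 (adjusted p = 0.0162). Rrs1, of 5S particle incorporation, rose by 1.00 ± 0.13 in knockout cells (adjusted p = 0.00441), with a difference of 1.00 ± 0.18 (adjusted p = 0.0154). For both genes the starved knockout libraries were above all 6 others.

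Of 14 tested genes of RNA polymerase I and its factors, which transcribe the rRNA precursor, 2 rose and 0 fell in starved knockout cells. In starved wild-type cells 1 rose and 4 fell. Of all genes tested 8.44% rose and 9.77% fell in knockout cells, and 14.8% rose and 18% fell in wild-type cells. The median log2 fold change of the 14 was 0.43 in knockout cells and 0.03 in wild-type cells. With knockout rich replicate 1 left out these medians were 0.34 and 0.005. The difference was called higher for 3 of the 14 and lower for 0 with all libraries, while 7.43% of all genes were higher and 5.91% lower. Polr1b, its second largest subunit, rose by 0.79 ± 0.20 in knockout cells (adjusted p = 0.0371) and was at -0.68 ± 0.20 in wild-type cells (adjusted p = 0.0396), and the difference was 1.47 ± 0.29 (adjusted p = 0.0187). Among 16 regulators of TOP mRNAs and translation, 3 rose and 1 fell in starved knockout cells and 1 rose and 2 fell in starved wild-type cells. The shares of all genes were those given above for starvation. Medians of the 16 were 0.12 in knockout and 0.01 in wild-type cells, and 0.15 and -0.01 without knockout rich replicate 1. Myc, a transcription factor known to drive ribosome production, had 606.9 and 592.0 CPM in the starved knockout libraries, 154.1 and 168.7 CPM in the rich knockout libraries, 90.7 and 83.9 CPM in the starved wild-type libraries and 88.3 and 84.4 CPM in the rich wild-type libraries. It rose by 1.89 ± 0.12 in knockout cells (adjusted p = 0.000557). Larp1, whose product binds TOP mRNAs, rose by 0.46 ± 0.11 in knockout cells (adjusted p = 0.0331). Mtor was lower in starved knockout than in starved wild-type cells, at -1.40 ± 0.20 (adjusted p = 0.00106). It was also lower in rich knockout than in rich wild-type cells, at -1.07 ± 0.20 (adjusted p = 0.00496 by edgeR).

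**Figure D5:**
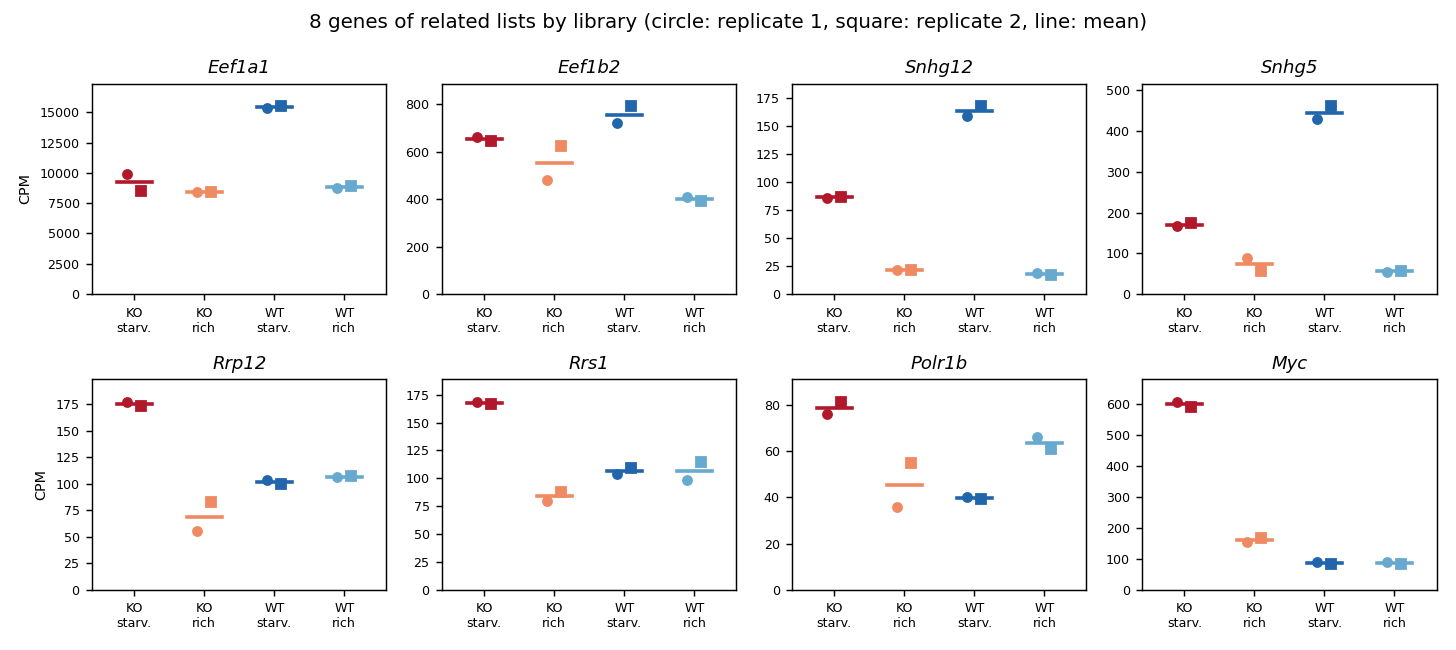
Level of 8 genes of the related lists in every library (CPM on TMM-scaled library sizes, linear axis from 0); circles are replicate 1, squares replicate 2 and lines group means. The elongation factor genes and snoRNA hosts are highest in the starved wild-type libraries, while Rrp12, Rrs1, Polr1b and Myc are highest in the starved knockout libraries.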

How the data were processed

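RNA-seq libraries of 4 groups of 2 were analysed; 4 chromatin immunoprecipitation and input libraries of the series were not analysed here. Groups and replicate numbers come from the sample titles. The authors deposited raw read counts per transcript, in whole numbers. The submitters' processing notes name TopHat2 2.0.9, bedtools and the mm9 build. For strand and for reads with several matches the sources used here give no rule; ribosomal protein genes have many processed pseudogenes, so their counts could gain or lose shared reads. The table held 31055 transcripts of 23366 symbols, and the transcript with the highest total stood for each symbol. For the 10 members with several transcripts the lowest held at least 94.9% of the highest total.

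Genes were filtered with filterByExpr and tested with the quasi-likelihood test of edgeR 4.0.16 in R 4.3.3, with TMM (trimmed mean of M values) library sizes, a mean per group over all 8 libraries (biological coefficient of variation 18.5%) and Benjamini-Hochberg adjustment over the 13882 genes tested, at 0.05. SE is the log2 fold change divided by the square root of F. CPM values use the TMM-scaled sizes; 3 counts correspond to 0.104 to 0.369 CPM. The fit was also run on simulated counts that gave each gene the same spread in all 8 libraries. That setting does not cover the wider spread of the knockout rich pair. Replicates within a group differed by more than sampling noise. Libraries were not paired by replicate number in the main fit. Deviations of same-numbered libraries correlated at -0.03 to 0.15 between groups, highest between the starved and rich knockout pairs. Such values cannot show whether same-numbered libraries shared an embryo or culture.

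The members and gene lists were chosen with earlier results of these data known. Named in full are the 4 highest and 4 lowest members per comparison, the stalk, 5S particle and paralog genes, Rps6, Rps3, Rpsa, Rps27a and Rps19, and the 4 genes with the smallest p per other list; Rps24, Rpl27a and other members outside this rule were named after their values were seen. Some genes these rules cover are not reported here. Other settings were relative log expression (RLE) factors, TMM without the members, total counts, a filter of 5 CPM in 2 or more libraries, no filter, limma-voom (limma 3.58.1), DESeq2 1.42.0, a replicate block, only the libraries compared, the transcript with the lowest total, and leaving out each library. Promoter windows are from RefSeq.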

Additional observations from a re-analysis of the deposited data

Results flagged for a closer look

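The starvation response differed between knockout and wild-type cells, by the interaction term of the edgeR fit over all genes, in 4 ribosomal protein genes. These were 4 of 81 members lower and 0 higher, while 5.91% of all genes tested were lower and 7.43% higher. The share of members called was thus not above that of all genes. The difference of log2 fold changes, knockout minus wild type, was -1.25 for Rpl22l1, -0.75 for Rps4x, -0.78 for Rps12 and -0.76 for Rpl27a. The 4 were picked by this same fit. Their 2 rich knockout libraries were close to each other, so leaving out either of them could change these values little. In the same order they were -1.26, -0.74, -0.69 and -0.76 without replicate 1 and -1.19, -0.71, -0.81 and -0.69 without replicate 2. Leaving out any 1 of the other 6 libraries left 0 of the 4 called, with adjusted p = 0.0588 to 0.183 by edgeR and the same sign, and with the replicate block Rpl22l1 alone was called.

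Among the genes of related lists with the smallest p, the difference was negative for the snoRNA host genes Snhg12 at -1.20, Snhg5 at -1.77, Snhg6 at -1.42 and Snhg8 at -1.35. It was positive for Myc at 1.88, for the assembly factor genes Rrs1 at 1.00, Rrp12 at 1.41, Tsr1 at 0.87 and Nop56 at 0.99, and for the RNA polymerase I genes Polr1b at 1.47, Polr1e at 0.86 and Znrd1 at 0.94. All 12 were picked by this same fit, and they kept their sign whichever library was left out. Most of them lost their call when 1 of the 6 libraries outside the rich knockout pair was left out. Groups of 2 libraries are too small for a test of outlying samples.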

How the results depend on the processing

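Medians of the members kept their sign under the alternatives other than leaving out a library. Fitting only the libraries compared gave 79 members higher and 1 lower under wild-type starvation, 0 higher under knockout starvation, where 0 of all 12693 genes tested were called in that fit, 0 lower in rich knockout against rich wild-type cells, where 11.4% of all genes were lower, and 2 higher and 69 lower after starvation. Under knockout starvation 3 members rose with no filter, with DESeq2 and with limma-voom, while 6.88%, 11.5% and 9.65% of all genes rose. In rich medium DESeq2 called 5 members higher in knockout cells, against 25.9% of all genes. There 5, 6, 7 and 6 were lower with TMM without the members, no filter, DESeq2 and limma-voom. Of all genes 21.7%, 17.1%, 23% and 22% were lower in these settings. The difference between responses gave 7, 15 and 7 lower members with total counts, DESeq2 and limma-voom, against 6.45%, 9.53% and 6.88% of all genes. With the replicate block it gave 1, against 4.38% of all genes. Rpl22l1 was called there, and Rps4x, Rps12 and Rpl27a had adjusted p = 0.0552, 0.056 and 0.0582 by edgeR. Total counts moved the median of all genes to -0.14 in knockout against wild type after starvation. The share of gene counts moved to 4.56% in starved knockout and 4.43% in rich wild-type cells with the lowest-total transcript, and to 4.27% in rich wild-type cells without the paralogs.

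Leaving out each library in turn gave 3 to 79 higher and 0 to 1 lower members under wild-type starvation (median 0.57 to 0.74), with 14 and 6 higher without starved wild-type replicate 1 and 2, and 7 and 3 without rich wild-type replicate 1 and 2. It gave 0 to 60 higher and 0 to 5 lower under knockout starvation (median 0.13 to 0.73), 2 to 33 higher and 0 to 49 lower in rich medium (median -0.50 to 0.068), 0 to 2 higher and 7 to 69 lower after starvation (median -0.57 to -0.38), and 0 to 34 higher and 0 to 74 lower for the difference (median -0.51 to 0.011). Calls over all genes rose and fell in the same fits, so these ranges of counts alone do not set the members apart. The members' share of gene counts ranged from 4.37% to 4.49% in starved knockout and 2.97% to 4.27% in rich knockout cells. It ranged from 6.53% to 7.18% in starved wild-type and 4.29% to 4.32% in rich wild-type cells.

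Of the genes named, only values not called with all 8 libraries changed sign. Rpl27a under knockout starvation was at -0.025 with RLE factors and with DESeq2, -0.034 with total counts, -0.016 with the stricter filter, -0.0032 with only the libraries compared, and -0.011 to 0.084 as each library was left out. Leaving out each library gave -0.38 to 0.20 for Rpl39, -0.25 to 0.054 for Rps27l and -0.61 to 0.062 for Rpl23 under knockout starvation, and -0.020 to 0.12 for Rps27l under wild-type starvation. In rich medium it gave -0.66 to 0.039 for Rpl10, -0.099 to 0.34 for Rpl36a and -0.11 to 0.44 for Rpl39. The causes were not tested. With 2 libraries a group, 1 of them of 8447014 counts, small differences were not detectable.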
